A study of Mus musculus with 34 samples.

Results

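The medial gastrocnemius, a calf muscle, of mice of the GSL30 line was compared with that of wild-type mice at 8 months of age. GSL30 mice overexpress muscle glycogen synthase, the enzyme that joins glucose units into glycogen. The arrays were chosen by their labels alone: 5 carry the GSL30 label and 5 the wild-type label, together 10 of the study's 34. The other arrays hold tibialis, gastrocnemius and liver of muscle glycogen synthase knockout mice (MGSKO) and of their own wild-type mice at 3 months, and of these the gastrocnemius arrays (3 knockout, 5 wild type) are used below as a second genotype. The labels name the strain, C57BL6/129SV, only for the tibialis arrays. From the published description of the line, and not from the labels, GSL30 carries a rabbit muscle glycogen synthase altered at phosphorylation sites, driven by the muscle creatine kinase promoter. Its insertion site and the enzyme it makes cannot be told apart with 1 line.

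Muscle glycogen synthase, encoded by Gys1, works on chains begun by glycogenin and branched by Gbe1, and is held back by phosphorylation that protein phosphatase reverses. Phosphorylase and debranching enzyme release the glucose again during contraction. Gastrocnemius is mostly fast muscle: slow and oxidative fibres, with their own myosin, troponin and calcium pump isoforms, make up a minor share and have a denser capillary supply.

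Levels below are intensities on the deposited linear scale, given for the arrays in replicate order. Changes are log2 differences of log2(intensity + 50), GSL30 minus wild type, each with its limma standard error (SE), and they understate the change of dim genes. A probe set, the unit that reads a transcript on the array, passed with an adjusted p under 0.05 (Benjamini-Hochberg over 13576 probe sets). The labels do not say that the arrays came from separate animals, so p measures the spread between these samples.

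The skeletal muscle label held in the data: the skeletal actin gene Acta1 read 47519 to 97233 in the 10 arrays and 41.5 in wild-type liver. Array medians ran from 355.85 to 440.3. Correlations between arrays ran from 0.887 to 0.973. Wild-type replicate 5 stood apart, with the lowest mean correlation with its own group (0.937) and a Gapdh 3′ to 5′ signal ratio of 1.08 against 0.843 to 0.908 in the other 9 arrays. Liver transcripts differed between the groups: a score over 18 hepatocyte genes was 9.02 to 10.7 (log2) in wild type and 8.02 to 8.90 in GSL30, with no overlap. Alb, the serum albumin gene, read 3620.2, 10030.4, 2287.5, 3467 and 4585 in wild type against 978, 562, 749.7, 799 and 2163.5 in GSL30, against 63650 in wild-type liver. Over 431 probe sets bright in liver and dim in tibialis, the median level was 1.20 to 2.56% of liver in wild type and 0.995 to 1.57% in GSL30, and these ranges overlapped. Because the score separates the groups fully, its part and that of genotype in the results cannot be told apart by a fit holding both. With the score as covariate 0 probe sets passed by limma (2479 had an unadjusted p under 0.05, against 2908 without it), and 584 of the 585 probe sets called without it kept their sign.

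In all, 585 of the 13576 probe sets passed (4.31%): 287 were higher in GSL30 (2.11%) and 298 lower (2.20%). They stood for 249 genes that rose and 244 that fell, with 0 in both groups. Most changes were modest, and 70 of them exceeded 2-fold (31 higher, 39 lower). The groups did not overlap in 1002 probe sets (7.38%), 515 higher (3.79%) and 487 lower (3.59%). Of 8331 genes read by their brightest tested probe set, 406 passed (4.87%): 214 rose (2.57%) and 192 fell (2.30%), with a median change of 0.03 and 53.9% above 0. Gene lists are read against these shares. Where a called gene had more than 1 tested probe set (236 genes), the probe sets usually disagreed on the call (212 genes). Calls numbered 292 without wild-type replicate 1, 306 without wild-type 3, and 296, 182, 340 and 278 without GSL30 replicates 1, 2, 3 and 5. Without wild-type replicate 5, which stood apart, 412 passed.

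Gys1, the gene the line was made to overexpress, was measured first. Its brighter probe set read 10404, 9106, 8671, 7895.5 and 9500.5 in GSL30 and 6390.1, 5852, 5840, 7185 and 6158 in wild type. Every GSL30 array was above every wild-type array, and the change was 0.53 (SE 0.11, adjusted p = 0.0247). The dimmer probe set read 8110.5, 5503, 5917, 5226 and 8338 in GSL30 and 3286, 2461, 2036, 3332 and 289 in wild type. Again the groups did not overlap, with wild-type replicate 5 far below the others, and the change of 1.84 (SE 0.52, adjusted p = 0.0637) missed the threshold. Without that array the dimmer probe set passed (1.24, adjusted p = 0.0124). The brighter probe set's call was lost without wild-type replicates 1 or 3 or GSL30 replicates 1, 2 or 5 (adjusted p 0.0542 to 0.0636), while its change stayed between 0.48 and 0.58. Whether either probe set reads the rabbit transgene is not stated in the labels. In the knockout arrays the brighter probe set read 165, 67.1 and 58.1.

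**Figure D1:**
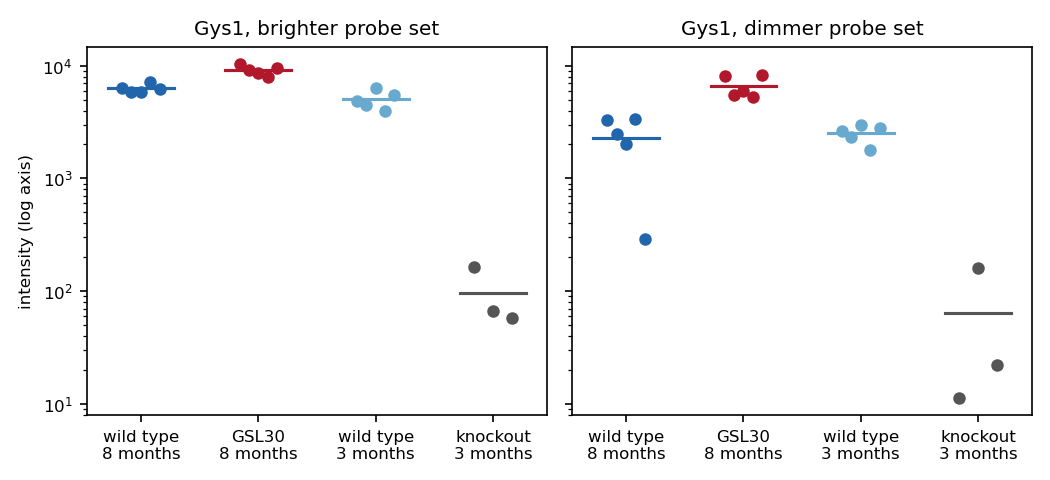
Intensity of the brighter (left) and dimmer (right) Gys1 probe set in each gastrocnemius array, on a log axis. Points are arrays and bars are group means; GSL30 arrays lie above the 8-month wild-type arrays for both probe sets, and wild-type replicate 5 reads 289.4 by the dimmer one.

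Slow fibre genes were lower in GSL30. Of 14 tested genes of the slow fibre list 8 fell, 1 rose and 5 did not pass, with a median change of −0.72 against 0.03 over all genes. The genes that fell encode slow myosin chains (Myh7, Myl2, Myl3), slow troponins (Tnnt1, Tnnc1, Tnni1), the slow calcium pump (Atp2a2) and the oxidative fast myosin Myh2. Myh7, the slow myosin heavy chain, read 4158, 3373, 3649, 5461 and 4155 in wild type against 1334, 1761, 1548, 2614 and 1472 in GSL30. Its groups did not overlap, with GSL30 replicate 4 nearest to wild type, and its change was −1.25 (SE 0.19, adjusted p = 0.00636). Tnnt1, the slow troponin T, read 3015.5, 2863, 4432, 4789.7 and 4279 in wild type against 1379.5, 1209, 1264, 2559.5 and 1534 in GSL30. The same GSL30 array was again the highest of its group, still under every wild-type array, and the change was −1.28 (SE 0.22, adjusted p = 0.0102).

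The light chain gene Myl3, of slow fibres and heart, read 10654, 9710.4, 10147, 11293 and 10531 in wild type against 5349, 4376, 5758, 7324 and 6862 in GSL30 by the probe set with its smallest p. All GSL30 arrays were lower, and the change was −0.84 (SE 0.14, adjusted p = 0.0108), close to the −0.89 of its brightest probe set. Tpm3, which encodes the slow fibre tropomyosin among other forms, split by probe set: 1 probe set read 3976, 3171, 3791, 5643 and 3114 in wild type against 983, 1266, 1525.5, 2844 and 1315 in GSL30, a change of −1.35 (SE 0.25, adjusted p = 0.0163), while its brightest stood at 0.02 (adjusted p = 0.955). Smtnl1, a smoothelin-like regulator of contraction placed in this list, was the exception. Wild-type arrays gave 1359, 1424, 1191, 1528.5 and 1186 and GSL30 arrays 4347, 5191, 2282, 2020.3 and 3637, without overlap, a rise of 1.27 (SE 0.23, adjusted p = 0.0155). The count of slow fibre genes that fell was 5 without wild-type replicate 3 or 4 or GSL30 replicate 1, 4 without GSL30 replicate 3, 2 without GSL30 replicate 2 and 6 without wild-type replicate 5. The list median stayed between −0.77 and −0.64 in every alternative fit.

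Fast fibre genes did not pass. By their brightest probe sets 0 of 15 were called by limma (2 at an unadjusted p under 0.05), with a median of 0.24 and 14 of 15 above 0, from −0.12 for the heavy chain gene Myh1 to 0.35 for the M-band gene Myom2. The median was 0.03 under quantile normalization. GSL30 replicate 5 was the highest of all arrays for 14 of the 15 genes. The list's mean level (log2) was 16.1 there, 15.5 to 15.8 in the other GSL30 arrays and 15.3 to 15.7 in wild type. These ranges overlapped apart from that array, and the median stayed between 0.13 and 0.33 whichever array was left out. Myh4, the fastest myosin heavy chain, read 42747 to 66982 in wild type and 49506 to 81427 in GSL30, so the groups overlapped. Myoz1, a Z-disc protein of fast fibres, disagreed between probe sets. A dimmer one read 1658, 1619, 1282, 1587 and 899 in wild type against 2892, 2058, 2883, 2696 and 2632.5 in GSL30 and rose by 0.90 (SE 0.17, adjusted p = 0.0168), while the brightest stood at 0.25 (adjusted p = 0.337).

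Actc1 and Tmod1, both of the thin filament, were among the clearest rises. Actc1, the cardiac actin that is also made in embryonic and regenerating skeletal muscle, read 4589.5, 5717, 7993, 4167 and 4422 in wild type against 16182, 19319.9, 22148, 19105 and 18389 in GSL30. Even the lowest GSL30 array stood far above the highest wild-type array, and Actc1 rose by 1.85 (SE 0.17, adjusted p = 0.00134). Tmod1, which caps the pointed end of actin filaments, read 3489, 4659, 2782.5, 3035 and 2808 in wild type against 11792, 7471, 10691.5, 8134 and 7169 in GSL30. Its groups did not overlap, and it rose by 1.42 (SE 0.18, adjusted p = 0.00383). Both kept their calls whichever array was left out.

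Of 13 tested genes of the developmental and regeneration list 3 rose (Actc1, Des and Cdh15), 1 fell (Vim) and 9 did not pass, with a median of 0.30. Vim, the intermediate filament of connective tissue and immature muscle, missed the threshold without any array other than wild-type replicate 4 or GSL30 replicate 4. Des, the muscle intermediate filament desmin, read 29887, 24029.5, 22594, 28320.2 and 22969.7 in wild type against 46210.5, 36499, 38159, 40389.7 and 54210.4 in GSL30, a rise of 0.75 (SE 0.14, adjusted p = 0.0163). Cdh15, the M-cadherin of muscle precursor cells, read 752, 745, 650.5, 769 and 762 in wild type against 1337, 1337, 980.1, 1033 and 1169 in GSL30. It rose by 0.63 (SE 0.12, adjusted p = 0.0168), a call lost without GSL30 replicate 2 (adjusted p = 0.0517). Pax7, which defines satellite cells, overlapped between groups at 134 to 318 in wild type and 168 to 340 in GSL30. Of 8 satellite cell markers 2 rose (Des and Cdh15) and 1 fell (Notch3), with a median of −0.20. Des and Notch3 are not particular to these cells: Des is also in the Z-disc list, and Notch3 in the smooth muscle and pericyte list. The Notch3 call was lost without wild-type replicates 2 or 3 or GSL30 replicates 1, 2, 3 or 5 (adjusted p 0.0528 to 0.0698).

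The start regions of 4 contractile genes are shown, to set 2 that rose (Actc1, Tmod1) beside 2 slow fibre genes that fell (Myl3, Tnnt1). Each is the 250 bases before the annotated start in RefSeq on build GRCm38.p6, 5′ to 3′ along the gene. Actc1 is chr2:114052876-114053125 on the minus strand, Tmod1 chr4:46038972-46039221 on the plus strand, Myl3 chr9:110763428-110763677 on the plus strand and Tnnt1 chr7:4515976-4516225 on the minus strand. Capitals mark matches on either strand to the CArG box, which binds serum response factor, the MEF2 site, the MCAT element (CATTCC) bound by TEAD factors, and the TATA box (TATAAA). E-boxes (CANNTG), which bind the MyoD family, were counted but left in lower case.
Actc1: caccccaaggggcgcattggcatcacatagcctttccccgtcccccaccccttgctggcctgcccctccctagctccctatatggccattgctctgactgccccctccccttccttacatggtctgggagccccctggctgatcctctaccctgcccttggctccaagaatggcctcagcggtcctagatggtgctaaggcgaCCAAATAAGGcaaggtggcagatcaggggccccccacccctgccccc
Tmod1: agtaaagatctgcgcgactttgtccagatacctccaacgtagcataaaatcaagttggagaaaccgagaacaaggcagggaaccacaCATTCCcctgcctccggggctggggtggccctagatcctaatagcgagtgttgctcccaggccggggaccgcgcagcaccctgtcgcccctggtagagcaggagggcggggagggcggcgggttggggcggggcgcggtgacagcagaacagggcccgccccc
Myl3: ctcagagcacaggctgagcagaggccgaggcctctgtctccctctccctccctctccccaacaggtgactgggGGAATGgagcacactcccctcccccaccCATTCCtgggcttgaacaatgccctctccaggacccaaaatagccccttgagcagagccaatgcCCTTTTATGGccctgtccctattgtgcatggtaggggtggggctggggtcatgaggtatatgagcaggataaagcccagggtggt
Tnnt1: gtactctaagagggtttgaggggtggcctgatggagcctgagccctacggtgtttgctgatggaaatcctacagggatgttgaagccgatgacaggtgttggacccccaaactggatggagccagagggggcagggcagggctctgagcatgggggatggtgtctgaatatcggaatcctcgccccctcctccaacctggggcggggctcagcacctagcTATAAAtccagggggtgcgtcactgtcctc
The windows of Actc1, which rose, and Myl3, which fell, each held 1 CArG box, 47 to 38 and 85 to 76 bases before the start. MCAT elements were at 1 place in Tmod1 and 2 in Myl3. Tnnt1 held a TATA box 30 to 25 bases before the start, and Myl3 and Tnnt1 1 E-box each. No MEF2 site was matched in the 4 windows. Of 32851 such windows in the table, 1.47% held a CArG box, 2.92% a MEF2 site, 12.6% an MCAT element, 12.4% a TATA box and 66.2% an E-box. In the 8747 windows of tested genes the shares were 1.23, 1.71, 10.8, 7.11 and 57.8% in the same order. The matches are letters only, and no binding was measured here.

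One list joined genes of the Z-disc and its attachments with genes of the response to load, so not every member belongs to the Z-disc. Of its 31 tested genes 4 rose (Des, Lmna, Pdlim3, Pdlim7), 2 fell (Pdlim1, Utrn) and 25 did not pass, with a median of 0.07. The count that fell was 4 without wild-type replicate 3, 3 without GSL30 replicate 3 or 4 and 1 without GSL30 replicate 2. Of the genes for PDZ and LIM proteins in this list, Pdlim3 and Pdlim7 rose and Pdlim1 fell. Pdlim7 read 11720, 11882, 12591, 13277 and 11349 in wild type against 18385, 18090, 19678, 17391 and 19994 in GSL30, a rise of 0.62 (SE 0.10, adjusted p = 0.00878). Pdlim1 read 4135.5, 4691, 5713, 5213 and 4919.6 in wild type against 2629.9, 2415, 3023, 3580.5 and 2593 in GSL30, a change of −0.79 (SE 0.14, adjusted p = 0.0112). Neither gene overlapped between groups, and both calls held whichever array was left out. Another probe set of Pdlim7 stood at −0.03 (adjusted p = 0.924).

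Among the 12 genes with the highest rises, several were dim in wild type. The filter took each probe set's mean over both groups, so such a gene could be tested because of its GSL30 level. A gene as dim in wild type that did not rise could be left out, so these rises were favoured by the filter. Crip3, a LIM-domain protein, read 49.5, 77.7, 184, 209 and 115.5 in wild type against 818.5, 986, 700.5, 671 and 1109.8 in GSL30. All 5 GSL30 arrays were far above wild type, with a rise of 2.42 (SE 0.25, adjusted p = 0.00134). Dnase1, a secreted endonuclease, read 115, 106, 145, 119.6 and 87.5 in wild type against 1176, 606, 724, 337 and 1527.5 in GSL30. It varied within GSL30, where replicate 4 was lowest and replicate 5 highest, and rose by 2.33 (SE 0.31, adjusted p = 0.00398). Otub2, a deubiquitinase, read 266, 449.9, 364, 438 and 359 in wild type against 1005, 1097.5, 969.5, 850.1 and 1235.5 in GSL30 and rose by 1.35 (SE 0.15, adjusted p = 0.00167). Its lack of overlap, as for the other genes of these 12, was a condition of being picked.

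Panx1, a pannexin channel that passes ATP, read 248, 53.1, 145, 98.7 and 155 in wild type against 556, 709.9, 507, 486 and 486 in GSL30, a rise of 1.73 (SE 0.24, adjusted p = 0.00447). Cpne2, a calcium-binding copine, rose by 1.80 (SE 0.26, adjusted p = 0.00636), with GSL30 replicate 2 at 2826 and the other GSL30 arrays at 943.6 to 1147. Cuzd1 rose by 1.44 (SE 0.22, adjusted p = 0.00636). In the list of ion channels and pumps 1 of 11 tested genes rose (Kcna7), 2 fell (Atp1b1, Trpm7) and 8 did not pass. Kcna7, a potassium channel of muscle, read 2103, 2283, 2313, 2754.5 and 2657 in wild type against 4442.5, 4657, 4258, 3999 and 5139 in GSL30, a rise of 0.88 (SE 0.12, adjusted p = 0.00419). The calls of Crip3, Dnase1, Otub2, Cpne2, Cuzd1 and Kcna7 held whichever array was left out, and that of Panx1 in the 7 of these 10 fits in which it passed the filter on dim probe sets. For Crip3, Dnase1 and Panx1, all dim in wild type, these fits share the limit of that filter given above. Less firm were Opn1mw, an opsin gene, at 2.05, Cacng6, a calcium channel subunit, at 1.56 by 1 of its 2 probe sets, and Asb15, a muscle ankyrin repeat protein, at 1.35 (adjusted p = 0.0316, 0.0497 and 0.0455). Opn1mw missed the threshold without wild-type replicate 3 or GSL30 replicates 2, 3 or 5 (adjusted p 0.0689 to 0.0831). Cacng6 missed it without any array other than wild-type replicates 1 and 5 (adjusted p 0.0598 to 0.106), and Asb15 without wild-type 3 or 4 or GSL30 1, 2, 3 or 5 (adjusted p 0.0685 to 0.106).

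**Figure D2:**
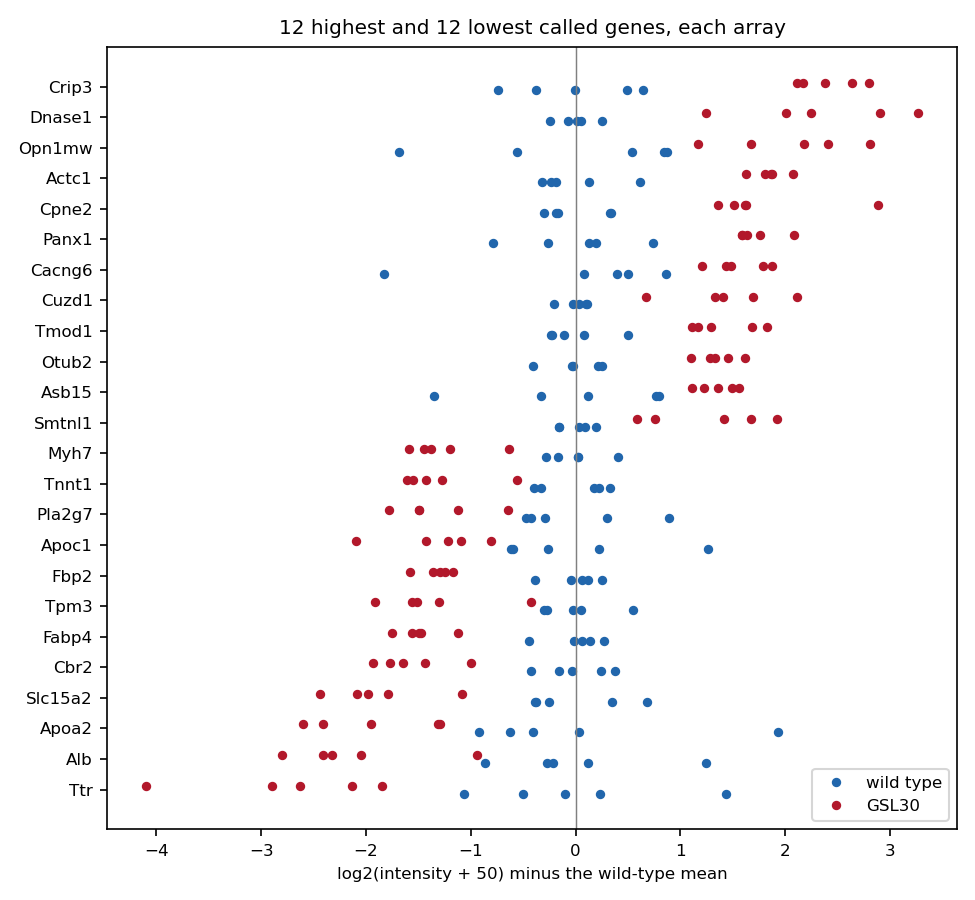
Each array's log2(intensity + 50) minus the wild-type mean, for the 12 highest and 12 lowest called genes whose groups do not overlap. Blue points are the 5 wild-type and red points the 5 GSL30 arrays; Ttr, Alb and Apoa2, which hepatocytes make, are the 3 lowest.

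Vessel wall genes were lower in GSL30. Of 14 endothelial markers 6 fell (Cdh5, Cldn5, Esam, Pecam1, Tie1, Vwf), 0 rose and all 14 changes were below 0, with a median of −0.54. Cdh5, the endothelial cadherin, read 2946, 2833, 3255, 2898 and 3667 in wild type against 1649.7, 1778, 1714, 1972 and 2055 in GSL30. The groups were well apart, and its change was −0.75 (SE 0.12, adjusted p = 0.00706). Esam, an endothelial adhesion molecule, read 3199, 3357, 3556, 3518 and 3444 in wild type against 2472, 2012, 2137, 2439 and 1868 in GSL30, a change of −0.64 (SE 0.11, adjusted p = 0.0120). The receptor genes Kdr and Tek, also defining markers, stood at −0.52 and −0.57 and did not pass (adjusted p = 0.108 and 0.0794). Fewer cells of a type and less RNA per cell cannot be told apart in whole muscle. The count of endothelial genes that fell was 6 without wild-type replicate 5 and 3 without GSL30 replicate 2.

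Of 11 smooth muscle and pericyte markers 7 fell (Acta2, Myh11, Myl9, Mylk, Notch3, Pdgfrb, Tagln) and 0 rose, with a median of −0.63. Changes were below 0 for 8 and above 0 for 3, and 10 of the 11 had an unadjusted p under 0.05 by limma. Myh11, the smooth muscle myosin heavy chain, read 926, 895, 1125, 981 and 1345 in wild type against 480.4, 445, 538, 469 and 475 in GSL30. Every GSL30 array was near the same low level, and its change was −1.04 (SE 0.13, adjusted p = 0.00323). Tagln, an actin-binding protein of smooth muscle, read 2890.4, 3190.5, 3584, 3336 and 3528 in wild type against 1563, 1506, 1509, 2261 and 1785 in GSL30, a change of −0.93 (SE 0.13, adjusted p = 0.00568). Lmod1 and Smtn, contractile genes of the same list, stood at 0.58 and 0.45 (adjusted p = 0.205 and 0.119). The count that fell was 4 without wild-type replicate 1 or 2 or GSL30 replicate 1, 3 without wild-type 3 or GSL30 5, and 2 without GSL30 replicate 2, and 6 without wild-type replicate 5. Vegfa, the growth factor of capillaries, read 1685, 1684, 2158, 2231 and 2046 in wild type against 1036, 959, 1178, 894 and 1032 in GSL30, a change of −0.91 (SE 0.12, adjusted p = 0.00457) by its brightest probe set, while another stood at 0.07 (adjusted p = 0.899).

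Of 11 fibroblast and tendon markers 5 fell (Comp, Dpt, Fmod, Pdgfra, Thbs4), 0 rose and all were below 0, with a median of −0.52. Thbs4, a thrombospondin of tendon, read 3559, 4273, 4578, 4278 and 3920.5 in wild type against 2278, 2512, 2887.5, 2216 and 2127 in GSL30, a change of −0.77 (SE 0.12, adjusted p = 0.00772) without overlap. This count was 1 without wild-type replicates 1, 2 or 3 or GSL30 replicates 1, 2 or 5, 2 without wild-type 5 or GSL30 3, and 3 without wild-type 4. Dcn, the abundant matrix proteoglycan, overlapped between groups at 32907 to 45995 in wild type and 29892 to 42392 in GSL30. In the collagen and matrix list 6 of 35 fell (Col4a1, Col4a2, Fn1, Lox, Thbs4, Timp3) and 0 rose, with a median of −0.23. Col4a1 of basement membranes read 7534, 7560.3, 7156, 6192 and 8218 in wild type against 5121, 5194, 4657, 4983 and 4388 in GSL30, a change of −0.58 (SE 0.11, adjusted p = 0.0168). Lox, which crosslinks collagen, read 2754, 2095, 1356.5, 2132 and 2213 in wild type against 1069, 912, 657, 917 and 745 in GSL30 by 1 probe set, a change of −1.23 (SE 0.18, adjusted p = 0.00636), and stood at −0.59 by its brightest (adjusted p = 0.0489). With the hepatocyte score as covariate the matrix median was −0.01, and those of the endothelial and smooth muscle lists were −0.50 and −0.52. The score separates the groups fully, so this fit cannot tell its part in a list from that of genotype. Wild-type replicate 2, with the highest score (10.7), was the highest array for 19 of the 35 matrix genes. The matrix list's mean level (log2) was 11.6 there, 11.0 to 11.4 in the other wild-type arrays and 11.0 to 11.2 in GSL30. Its median change stayed between −0.31 and −0.15 whichever array was left out.

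**Figure D3:**
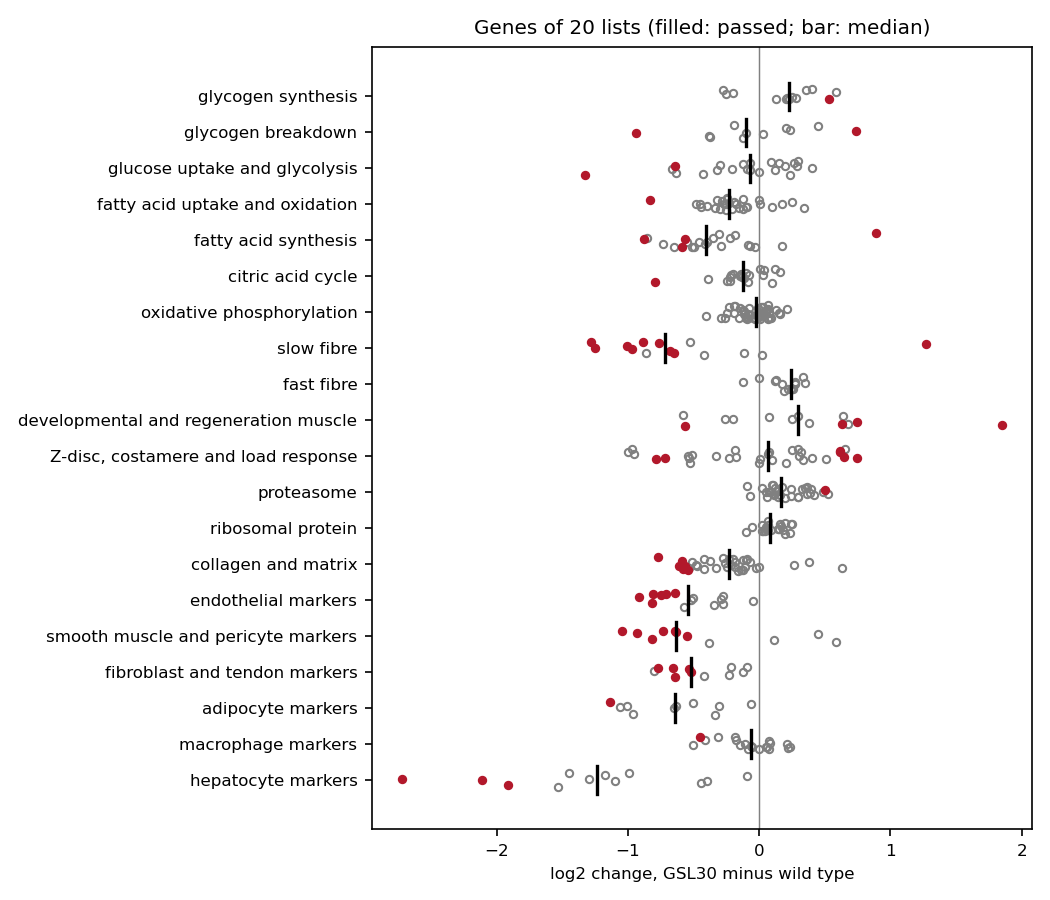
Horizontal axis: log2 change, GSL30 minus wild type, of every tested gene of 20 lists by its brightest probe set; filled points passed and black bars are list medians. Slow fibre genes (median −0.72), endothelial (−0.54) and smooth muscle markers (−0.63) lie mostly to the left, fast fibre genes (0.24) mostly to the right of 0. For 14 of the 15 fast fibre genes GSL30 replicate 5 was the highest array.

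Of 10 adipocyte markers 1 fell (Cidec) and all were below 0, with a median of −0.64. Cidec, a lipid droplet protein, read 4825, 3459, 4794, 2961.5 and 4525.5 in wild type against 1629, 1233, 1577, 3127 and 1956 in GSL30. Its groups overlapped through GSL30 replicate 4, and the change was −1.14 (SE 0.23, adjusted p = 0.0192). That call was lost without GSL30 replicate 2 (adjusted p = 0.0521), while the count of adipocyte markers that fell was 4 without wild-type replicate 4 or GSL30 replicate 4 and 2 without wild-type replicate 2 or 5. Adipoq, which defines fat cells, read 18205, 19784, 19436, 9868 and 19642 in wild type against 10030.4, 7703, 10386, 14815 and 12689 in GSL30 and did not pass (−0.63, adjusted p = 0.122). Wild-type replicate 4 was within the GSL30 range. Of 20 macrophage markers 1 fell (Mrc1) and 0 rose, with a median of −0.06. GSL30 replicate 2, the array without which the fewest probe sets passed (182), stood apart here: it was the highest of the 10 arrays for 11 of the 20 genes, and the list's mean level (log2) was 10.9 there, 10.0 to 10.4 in the other GSL30 arrays and 10.2 to 10.6 in wild type. Cd68, a lysosomal protein of macrophages, read 738.5, 948, 675, 493.5 and 708 in wild type against 589.6, 2204, 791, 734 and 477.5 in GSL30. Lyz2, the lysozyme of macrophages, read 8769, 10035, 10665, 9321 and 11372 in wild type against 6791, 16760.4, 8757, 12472 and 7915 in GSL30, again highest in that array. Without it the median of the list was −0.24, and its part in the other results was not tested beyond the fits that leave it out. Mrc1 stood at −0.45 (adjusted p = 0.0482) and missed the threshold without any array other than GSL30 replicate 4 (adjusted p 0.0635 to 0.101). The part of the liver transcripts in the vessel, fibroblast and fat cell results was not tested beyond these fits.

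Of 18 hepatocyte markers on the array 12 were tested. Of these 3 fell (Alb, Apoa2, Ttr) and all were below 0, with a median of −1.23. The filter took the mean over both groups, so a marker dim in GSL30 could be tested because of its wild-type level. Falls of such markers were therefore favoured by the filter, and so was the list median. Ttr, a serum carrier of thyroid hormone, read 1362, 3192, 800.5, 525 and 1071 in wild type against 224, 111, 20.1, 145 and 284 in GSL30. Wild-type replicate 2 was the highest for Ttr and Alb, and Ttr changed by −2.72 (SE 0.47, adjusted p = 0.0112). Without wild-type replicates 2 and 5 Alb stood at −1.65 (adjusted p = 0.0542) and Ttr at −2.28 (adjusted p = 0.0426). Apoa2 changed by −1.91 (SE 0.47, adjusted p = 0.0428) and missed the threshold without wild-type replicates 1 or 5 or any 1 of the GSL30 arrays (adjusted p 0.0540 to 0.102).

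**Figure D4:**
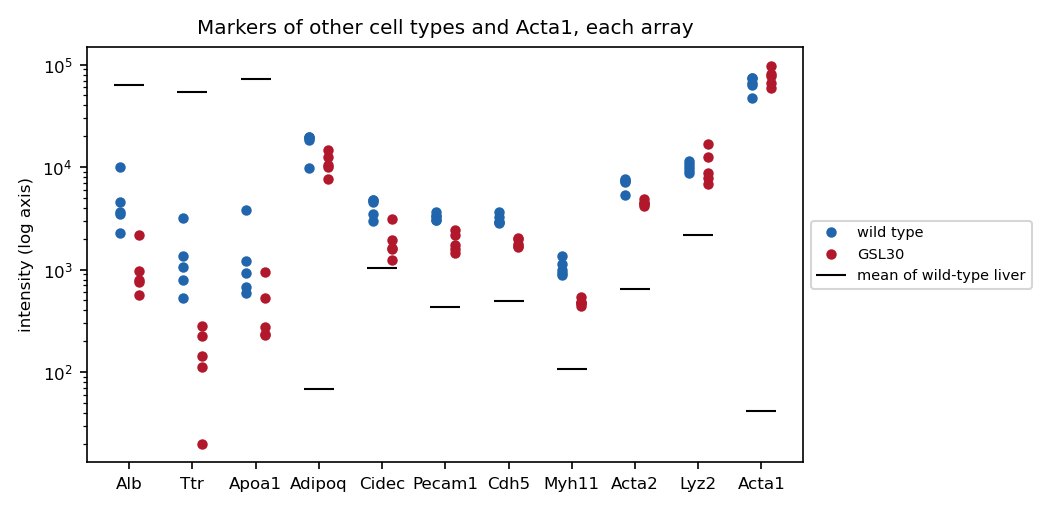
Intensity of defining genes of hepatocytes (Alb, Ttr, Apoa1), fat cells (Adipoq, Cidec), endothelium (Pecam1, Cdh5), smooth muscle (Myh11, Acta2) and macrophages (Lyz2), with the muscle gene Acta1, on a log axis. Points are the 5 wild-type and 5 GSL30 arrays and black bars the mean of wild-type liver; Cdh5 and Myh11 do not overlap between groups, Lyz2 and Acta1 do.

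In the list of fatty acid uptake and oxidation 1 of 29 genes fell by its brightest probe set (Cd36), 0 rose and 28 did not pass, a share near that over all genes. Changes were below 0 for 24 of the 29, with a median of −0.23. Cd36, the fatty acid transporter of fibres and capillaries, read 17649, 16845, 17613, 14603 and 15717 in wild type against 8539.7, 8795, 9980, 10822 and 8223.5 in GSL30. The groups were well apart, and its change was −0.83 (SE 0.12, adjusted p = 0.00511). Fabp4, a fatty acid carrier of fat cells and capillaries, read 2928, 2774, 2633, 1949 and 3221 in wild type against 872, 754, 927, 914 and 1200.4 in GSL30 by 1 probe set, a change of −1.48 (SE 0.16, adjusted p = 0.00134), and stood at −0.33 by its brightest (adjusted p = 0.265). Lpl, the lipase that frees fatty acids in capillaries, read 8644, 8238, 8670.1, 6748 and 7610.3 in wild type against 4118, 3859, 3941.5, 4951 and 5475 in GSL30 by 1 probe set, a change of −0.84 (SE 0.13, adjusted p = 0.00776). Its brightest probe set stood at −0.25 (adjusted p = 0.351).

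In the fatty acid synthesis and storage list 3 of 22 fell (Dgat2, G0s2, Scd2), 1 rose (Mid1ip1) and 20 were below 0, with a median of −0.40, and 6 fell without GSL30 replicate 4. Scd2, a desaturase, read 742.5, 834, 985, 747 and 820 in wild type against 495, 540.4, 501, 553 and 562 in GSL30, a change of −0.59 (SE 0.11, adjusted p = 0.0163). G0s2, an inhibitor of fat breakdown, changed by −0.88 (SE 0.17, adjusted p = 0.0179). Mid1ip1, which activates acetyl-CoA carboxylase, went the other way: levels were 3565, 2209.6, 2135, 2452 and 2547 in the wild-type arrays against 4803, 5473, 4045, 4444 and 5048 in the GSL30 arrays, a rise of 0.89 (SE 0.15, adjusted p = 0.0106).

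Of the other genes of glycogen synthesis, 0 of 12 besides Gys1 passed by their brightest probe sets in limma (0 at an unadjusted p under 0.05), and the list median was 0.23. The glycogenin gene Gyg stood at 0.25 (adjusted p = 0.261) and the branching enzyme gene Gbe1 at 0.28 (adjusted p = 0.408). Gbe1 read 725, 539.9, 566, 521 and 403 in wild type against 790.1, 832, 645, 757 and 418 in GSL30, with overlap. Ugp2, which makes UDP-glucose, split by probe set: the brightest stood at −0.20 (adjusted p = 0.409), and another read 8369, 7009, 9029.6, 10701 and 10098 in wild type against 6638, 5313, 6644, 5580.4 and 4265 in GSL30, a change of −0.67 (SE 0.16, adjusted p = 0.0351). The second missed the threshold without wild-type replicates 1, 3, 4 or 5 or GSL30 replicates 2 or 5 (adjusted p 0.0635 to 0.0862). The synthase kinases Gsk3a and Gsk3b stood at 0.13 and 0.58 (adjusted p = 0.457 and 0.259). Among the phosphatase targeting subunits, Ppp1r3a stood at 0.36 and Ppp1r3c at −0.26 (adjusted p = 0.319 and 0.493).

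On the breakdown side 1 of 11 genes rose, 1 fell and 9 did not pass, with a median of −0.10. Ppp1r1a, an inhibitor of the phosphatase, read 2109, 1393, 1820, 2348 and 2319.6 in wild type against 3904, 2711, 3504, 2986 and 3589.5 in GSL30. The groups did not overlap, and it rose by 0.74 (SE 0.16, adjusted p = 0.0267), a call lost without wild-type replicates 1 or 3 or GSL30 replicates 1, 3 or 5 (adjusted p 0.0513 to 0.0670). Pygl, the liver form of phosphorylase, read 717.5, 861, 1299, 917 and 864 in wild type against 306, 457, 478, 493 and 581 in GSL30, a change of −0.93 (SE 0.18, adjusted p = 0.0168). The muscle phosphorylase gene Pygm, far brighter, read 48443, 47357, 36611, 45698 and 44849 in wild type against 55002, 42535, 53724, 49638 and 62879 in GSL30 and did not pass (0.24, adjusted p = 0.316). Subunits of phosphorylase kinase, which turns phosphorylase on, ran from −0.37 for Phkb to 0.20 for Phka1, and 0 of them passed (5 genes tested by limma, 1 with an unadjusted p under 0.05). Gaa, the lysosomal enzyme that digests glycogen, rose by 0.59 (SE 0.14, adjusted p = 0.0351) by 1 probe set and stood at 0.45 by its brightest (adjusted p = 0.260). The call of the first was lost without wild-type replicates 3, 4 or 5 or GSL30 replicates 1, 2, 3 or 5 (adjusted p 0.0567 to 0.0822).

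In glucose uptake and glycolysis 2 of 22 genes fell (Fbp2, Pgam1) and 0 rose, with a median of −0.07. The count was 1 without wild-type replicate 3 or GSL30 replicates 3 or 5, where the call of Pgam1, the phosphoglycerate mutase, was lost (adjusted p 0.0518 to 0.0522). Fbp2, the muscle fructose bisphosphatase that opposes glycolysis, read 4993, 6117, 5349.6, 3925.5 and 5566 in wild type against 2259.8, 2133, 1968, 1681 and 2067 in GSL30. All GSL30 arrays were low and alike, and its change was −1.33 (SE 0.14, adjusted p = 0.00134). Ldhb, the lactate dehydrogenase subunit of heart and slow fibres, read 7649, 7947.5, 7643, 9326 and 8140 in wild type against 3621, 3564, 4429, 5284 and 3733.5 in GSL30 by 1 probe set, a change of −0.98 (SE 0.13, adjusted p = 0.00419). Its brightest probe set stood at −0.63 and did not pass (adjusted p = 0.142), with wild-type replicate 5 below every GSL30 array. The calls of Fbp2 and of the first Ldhb probe set held whichever array was left out.

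Of 20 citric acid cycle genes 1 fell, Idh2, the mitochondrial isocitrate dehydrogenase that uses NADP, and 0 rose, with a median of −0.12. Idh2 read 11049, 10500.2, 11324, 11847 and 12045.5 in wild type against 4068, 6229, 6814, 8977.5 and 7604.5 in GSL30, with GSL30 replicate 1 the lowest. Its change of −0.79 (SE 0.18, adjusted p = 0.0307) missed the threshold without wild-type replicates 1, 3, 4 or 5 or GSL30 replicates 2 or 3 (adjusted p 0.0572 to 0.0761). Oxidative phosphorylation genes ran from −0.41 to 0.21, with 0 of 48 passing by limma (3 at an unadjusted p under 0.05) and a median of −0.02. Proteasome subunits were above 0 in 30 of 32 genes, with a median of 0.17 and 1 passing, Psmd4, and 0 passed without wild-type replicates 2, 3 or 4 or GSL30 replicates 2, 3 or 5. These counts read Psmd4 by its brightest probe set. By another, with a smaller p, Psmd4, a ubiquitin receptor of the proteasome, read 4171, 3093, 3579.5, 3816 and 3689 in wild type against 5795, 5626, 5074, 5418 and 5971 in GSL30, a rise of 0.60 (SE 0.11, adjusted p = 0.0156). The call of that second probe set held whichever array was left out. Ribosomal protein genes were above 0 in 20 of 22, with a median of 0.08 and 0 passing by limma (0 at an unadjusted p under 0.05).

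Other genes that changed carry single roles. Slc15a2, a peptide transporter, read 1044, 952, 947, 2044 and 1613 in wild type against 327.5, 191, 258, 567 and 280.1 in GSL30, a change of −1.88 (SE 0.27, adjusted p = 0.00567). Cbr2, a carbonyl reductase, read 1735, 3067.5, 2282, 2094.5 and 2785 in wild type against 653, 1149, 714, 835 and 577.5 in GSL30, a change of −1.56 (SE 0.20, adjusted p = 0.00334). Trpm7, a magnesium channel, changed by −0.94 (SE 0.14, adjusted p = 0.00649). Ccng1, cyclin G and a target of p53, read 6158, 6904, 6998, 6518 and 7528 in wild type against 13792, 12927, 9598, 10948 and 14198 in GSL30, a rise of 0.83 (SE 0.13, adjusted p = 0.00772) by 1 of its 3 probe sets. The brightest stood at 0.48 (adjusted p = 0.0894), and by brightest probe sets 0 of 17 genes of the p53 response and cell death list passed in limma (6 at an unadjusted p under 0.05). Mbp, the myelin basic protein of Schwann cells, read 2009.5, 1905.5, 2479, 1745 and 2081 in wild type against 868, 808, 856, 1473 and 954 in GSL30, a change of −1.03 (SE 0.16, adjusted p = 0.00777) by the probe set with its smallest p, and stood at −0.83 by its brightest (adjusted p = 0.0204). By the probe sets given first, none of these 5 genes overlapped between groups, which for Slc15a2 and Cbr2 was a condition of being picked. Each kept its call whichever array was left out. Of 6 tested Schwann cell markers only Mbp fell by its brightest probe set, and 5 did not pass. The median of these markers was −0.12, with 2 above 0, and it was 0.16 with the hepatocyte score as covariate.

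The change in GSL30 was then set against the change in knockout gastrocnemius, which lacks the enzyme, by the contrast of both effects over 18 arrays. The 2 experiments differ in age (8 and 3 months) as well as genotype, and these cannot be told apart. They share no arrays. The effects differed for 312 of 13576 probe sets (2.30%), and for 152, 167 or 189 without knockout replicate 1, 2 or 3. In 221 the GSL30 effect was below 0 and the knockout effect above 0, and in 81 the reverse. Picking probe sets by a large difference favours opposite signs, so these counts do not show that each effect passed by itself. Of the 312, 162 were also called in GSL30 against its wild type. Over genes read by their brightest probe set the share whose effects differed was 2.68%. Liver transcripts were higher in the 3-month arrays, where the 431 liver probe sets stood at 2.74 to 26.7% of liver over knockout and wild type together. With the hepatocyte score as covariate the count was 595.

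Slow fibre effects differed between the experiments. For 10 of 14 the GSL30 effect was lower than the knockout effect, with medians of −0.72 in GSL30 and 0.79 in knockout. Myl3 read 22064, 17159 and 18297 in knockout against 7993, 11482, 8319, 9857 and 10209 in 3-month wild type. Knockout arrays were all above their wild type where GSL30 arrays were all below theirs, and the effects differed by −1.84 (SE 0.21, adjusted p = 0.000182). Tnnt1 read 8021, 5228 and 6550.3 in knockout against 3206, 2909, 1430.1, 3360.1 and 4552 in 3-month wild type, and its effects differed by −2.43 (SE 0.40, adjusted p = 0.00296). Fast fibre genes differed in 0 of 15 by limma (0 at an unadjusted p under 0.05), with medians of 0.24 and −0.19.

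Effects on vessel markers differed as well. The GSL30 effect was lower for 7 of 14 endothelial genes (medians −0.54 and 0.29) and for 6 of 11 smooth muscle genes (−0.63 and 0.39). Myh11 read 1571, 1176 and 1189.7 in knockout against 668, 670.2, 614, 742 and 613 in 3-month wild type, and its effects differed by −1.97 (SE 0.18, adjusted p = 1.94e-05). Cdh5 read 3970.4, 2682 and 2838 in knockout against 1714, 784, 1579.5, 1267 and 1537.5 in 3-month wild type, a difference of −1.95 (SE 0.26, adjusted p = 0.000739). Hepatocyte markers differed in 0 of 12 by limma (0 at an unadjusted p under 0.05), with medians of −1.23 and −1.29, both below 0.

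**Figure D5:**
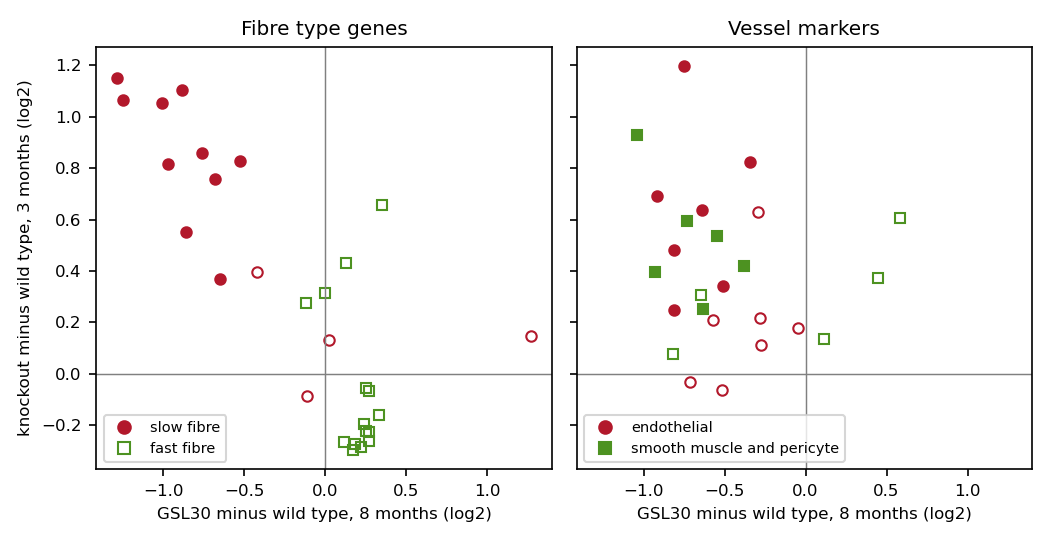
Log2 effect in knockout gastrocnemius at 3 months against the effect in GSL30 gastrocnemius at 8 months, by gene (brightest probe set). Filled symbols mark genes whose effects differed; the 10 slow fibre, 7 endothelial and 6 smooth muscle genes so marked lie in the upper left, below 0 in GSL30 and above 0 in knockout.

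Genes of metabolism that differed included Fbp2, which read 9204, 5424 and 6906 in knockout against 5077, 3862, 3756, 3775 and 5595 in 3-month wild type. Its effects differed by −2.01 (SE 0.24, adjusted p = 0.000238). Ppp1r1a read 367, 481 and 476 in knockout against 958, 1487, 2092, 1777 and 1492 in 3-month wild type, below every wild-type array where GSL30 was above, and its effects differed by 2.42 (SE 0.28, adjusted p = 0.000182). Odc1, the first enzyme of polyamine synthesis, was low in knockout at 746, 881 and 770.3 against 2348, 2112, 2109, 2340.2 and 2432.5, while GSL30 stood at 0.20 (adjusted p = 0.364). That difference was 1.65 (SE 0.16, adjusted p = 3.71e-05). Gys1 itself differed by 5.70 (SE 0.26, adjusted p = 2.28e-10). The differences of Fbp2, Ppp1r1a, Odc1, Gys1, Myh11 and Myl3 passed under all 30 settings run. For other genes a difference was not called, which does not show that the effects were alike. Actc1 stood at 1.85 in GSL30 and 1.34 in knockout, a difference of 0.51 (SE 0.34, adjusted p = 0.446). Kcna7 stood at 0.88 and 0.69, a difference of 0.20 (SE 0.24, adjusted p = 0.694).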

How the data were processed

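The authors deposited intensities on a linear scale for 22690 probe sets of an Affymetrix array. How probes were summarised, and with which tool, is not given in these sources. Per the labels' protocols, RNA was extracted with TRIzol and RNeasy. Array means without the lowest and highest 2% of values were about 999.9, so the arrays had been scaled alike. After 64 control probe sets were left out, log2(intensity + 50) was taken without further normalization and 22626 probe sets were filtered at the 40th percentile of their mean, leaving 13576. limma 3.58.1 (lmFit, eBayes) in R 4.3.3, with version 1.17.8 of the data.table package, fitted the 10 arrays, and 18 arrays for the difference of effects, with Benjamini-Hochberg adjustment. The number of arrays limits the precision. Symbols came from GEO's platform annotation: 20380 probe sets had 1 symbol, 691 several and 1555 none, and 20351 symbols matched RefSeq. A list reads each gene by its brightest tested probe set, and of 1084 entries in 48 lists 947 were on the array.

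The named genes are both Gys1 probe sets, those 12 called genes that rose most and 12 that fell most among genes whose groups do not overlap, up to 3 called genes per list by smallest p, the tested glycogen genes and the 6 differences of smallest adjusted p; other list members are named only to account for counts, after their values were seen. The members and lists were chosen with earlier results of these data known. The fit was tested on simulated data: 74% of 100 probe sets changed 2-fold and 85% of 100 changed 4-fold were recovered, with 9 false calls among 168. Each probe set was drawn independently there, without differences shared across an array such as those in liver transcripts. The share of false calls therefore does not carry over to these arrays. Alternatives changed the scaling, pseudocount, filter, arrays, variance prior, weights, probe sets per gene and treatment of liver transcripts.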

Additional observations from a re-analysis of the deposited data

Results flagged for a closer look

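Of 200 groups of 5 arrays of the named probe sets, 12 held an array far from the other 4, and chance flags about 1 in 20 groups. The dimmer Gys1 probe set read 289.4 in wild-type replicate 5 against 2036.2 to 3331.6 in the others. The same array was low for Cacng6, at 245.2 against 1061 to 1856.5, and for Cacnb1, at 356.8 against 657 to 810.5. Wild-type replicate 3 was low for Cdh15, at 650.5 against 745 to 768.9, and for Pygm, at 36611 against 44848.9 to 48442.9. GSL30 replicate 2 was high for Cpne2, at 2825.8 against 943.6 to 1146.6, and low for Myoz1, at 2058.1 against 2632.5 to 2891.7. GSL30 replicate 4 was low for Gsk3b, at 422.3 against 743.4 to 897.1, low for Ppp1r3a, at 197.3 against 347.2 to 419.1, and high for Mbp, at 1472.8 against 808.2 to 953.7. GSL30 replicate 3 was high for Ppp1r3c, at 23878.1 against 15064.8 to 16838.2, and for Clock, at 409.3 against 285.6 to 309.3.

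The GSL30 effect and the knockout effect differed by limma's contrast most clearly for 6 genes. The differences (GSL30 effect minus knockout effect, log2) were 5.70 for Gys1, −1.97 for Myh11, 1.65 for Odc1, −1.84 for Myl3, 2.42 for Ppp1r1a and −2.01 for Fbp2.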

How the results depend on the processing

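No paired analysis was possible because the arrays' titles carry codes and no replicate numbers shared between groups. Of the 287 probe sets called higher and 298 called lower, counts moved by more than 1.5 times with equal array medians (159 higher), no filter on dim probe sets (134 and 125), all 34 arrays in one fit (505 and 565), the hepatocyte score as covariate (0 and 0 by limma, with 2479 at an unadjusted p under 0.05) and without wild-type replicates 2 and 5 (77 and 76). Leaving out 1 array gave 91 to 349 higher and 91 to 423 lower. The 312 differences of effects became 193 without the filter, 678 with array weights and 595 with the covariate, and 152 to 448 with 1 array left out. Of 77 named probe sets called, 0 kept the call in every alternative, 37 lost it only with the covariate and 50 kept it whichever array was left out (in the fits that tested them); 1 changed sign, Apoa2, at 0.0090 with the covariate. The medians of 21 of 48 lists changed sign somewhere, fast fibre, slow fibre, endothelial and smooth muscle not among them. The cause was not tested; the score separates the groups, and fewer arrays leave fewer degrees of freedom. Dim genes near the filter are least certain.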

Other observations

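In several lists no gene passed by its brightest probe set. By limma 0 of 22 heat shock and chaperone genes (median −0.01), 0 of 16 insulin signalling genes (0.06) and 0 of 13 circadian clock genes (0.06) passed, with 5, 4 and 3 at an unadjusted p under 0.05. Clock, the gene of a core factor of the circadian clock, split by probe set: 1 read 436.5, 508, 510.3, 487 and 457 in wild type against 308, 286, 409, 309 and 288 in GSL30, without overlap, a change of −0.53 (SE 0.12, adjusted p = 0.0294), while the brightest stood at −0.32 (adjusted p = 0.277). The call of the first was lost without wild-type replicates 1, 2, 3 or 4 or GSL30 replicates 1, 2 or 5 (adjusted p 0.0507 to 0.0784). Complement genes were below 0 in 10 of 11, with a median of −0.26 and 0 passing (3 at an unadjusted p under 0.05), and cell cycle genes above 0 in 9 of 10, with a median of 0.14 and 0 passing (2 at an unadjusted p under 0.05). Without wild-type replicate 4, 2 complement genes fell and 1 heat shock gene rose, and without wild-type replicate 2, 1 insulin signalling gene rose and 1 fell. Among growth factors and other secreted proteins 3 of 15 fell. Dkk3, a Wnt pathway modulator, changed by −1.19 (SE 0.24, adjusted p = 0.0192) and Fgfbp1, a carrier of fibroblast growth factors, by −0.72 (SE 0.13, adjusted p = 0.0155). The Dkk3 call was lost without GSL30 replicate 2 (adjusted p = 0.0525). The knockout effects of both genes were also below 0, at −1.64 and −1.87. The effects differed for Fgfbp1, by 1.14 (SE 0.26, adjusted p = 0.0272), while for Dkk3 a difference of 0.45 was not called (adjusted p = 0.531).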
